A study of Mus musculus with 8 samples.

Results

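Neuropeptides are short peptides that neurons cut from larger precursor proteins, store in dense-core vesicles and release onto G-protein-coupled receptors. The genes described here encode 10 such precursors, Sst, Npy, Vip, Pyy, Penk, Tac1, Cck, Adcyap1, Nts and Crh, and were taken by symbol. All 10 were found among the 24062 genes of the count tables, and all 10 passed the filter on low counts that left 15789 genes for testing. In the cerebellum peptides of this kind are found in scattered neurons and in fibres arriving from the brainstem. PACAP, the product of Adcyap1, is known to restrain the Hedgehog-driven division of granule cell precursors in rodents, and somatostatin receptors are present on the same precursors. Corticotropin-releasing hormone, the product of Crh, is a peptide of the climbing fibres that rise from the inferior olive of the medulla.

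Whole cerebella of single pups were collected at postnatal day 2 and sequenced as polyA RNA, 4 from mutants and 4 from control littermates on a mixed C57BL/6 background. Mutants were Math1-Cre; Sufu flox/- and controls Sufu flox/+, per the series text, which does not state the Cre status of controls. Sufu encodes a negative regulator of Hedgehog signalling. The Math1 lineage gives rise to granule neurons and also to other neurons of the rhombic lip, among them glutamatergic neurons of the cerebellar nuclei and precerebellar neurons of the brainstem. The null allele was present in all mutant cells. The crossed parents carried Math1-Cre with Sufu +/- on one side and, on the other, Sufu flox/flox with the Math1 mgfp allele in both copies, so mutants and controls alike inherited a floxed Sufu and a Math1 mgfp allele.

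The libraries held 21479565 to 26638284 counts within genes. Sufu was lower in every mutant library (31.7 to 39.8 CPM, gene counts scaled to a common library size) than in any control library (47.7 to 60.7 CPM). Titles carry a letter, P or R, whose meaning is not stated and which 2 mutants and 2 controls share in each case; reads outside genes or not counted made up 30.1 to 34.3% of entries in P libraries and 24.8 to 26.3% in R libraries. Mutant 4 stood apart from the other 7 libraries in genes of the adjacent hindbrain. The summed level of 13 tested Hox genes, expressed in the medulla and absent from most of the cerebellum, was 6.80 CPM in mutant 4, 64.8 to 173 CPM in mutants 1 to 3 and 120 to 211 CPM in controls.

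All 10 neuropeptide genes had a lower mean in mutants than in controls, and Vip and Pyy had the largest differences. Vip averaged 0.568 ± 0.457 CPM in mutants and 2.20 ± 0.807 CPM in controls, and Pyy 0.734 ± 0.607 CPM in mutants and 3.46 ± 1.31 CPM in controls (SD, n = 4 each). A lower mean was found for 47.7% of all genes tested. By edgeR's quasi-likelihood test with Benjamini-Hochberg adjustment over all 15789 genes, 0 of the 10 passed the adjusted threshold of 0.05, as did 0% of all genes tested; DESeq2 also called 0 of the 10. At an unadjusted p under 0.05, 4 of the 10 were lower (Sst, Vip, Pyy and Penk), against 5.7% of all genes tested that were lower at that p. In 3 of the 10 (Vip, Pyy and Penk) every mutant lay below every control, which held for 2.96% of all genes tested; in 0 of the 10 every mutant lay above every control, which held for 3.6%. The median log2 fold change, mutant over control, was -0.64 over the 10 genes and 0.01 over all genes tested. Because the tissue was whole cerebellum, fewer peptide-making cells and less RNA per cell cannot be told apart. The summed level of Hox genes of the adjacent hindbrain also differed between libraries (6.80 to 173 CPM in mutants, 120 to 211 CPM in controls). Its part in the lower means was not tested.

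**Figure D1:**
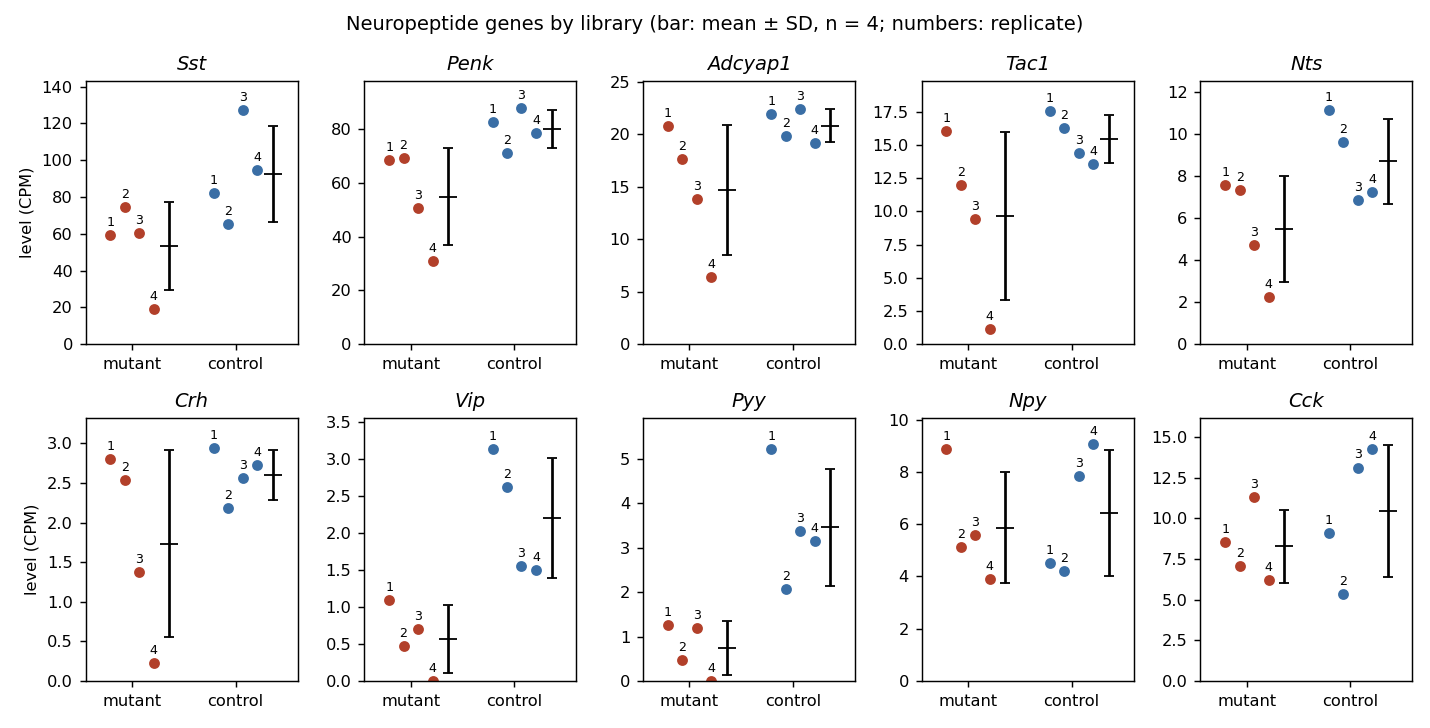
Level of each neuropeptide gene in CPM (y axis, from 0) in each library, mutants in red on the left and controls in blue on the right; numbers give the replicate, and the black mark gives mean ± SD (n = 4). Mutant 4 is the lowest mutant in all 10 panels, and the groups separate fully in those of Vip, Pyy and Penk.

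Somatostatin and enkephalin precursors were the most abundant of the set. Per kilobase of exon, with exon lengths from GENCODE release M21, the control level was 128 ± 36.1 CPM per kb (SD, n = 4) for Sst and 55.2 ± 4.81 CPM per kb (SD, n = 4) for Penk. Next in order came Tac1, Npy, Cck, Nts, Adcyap1 and Pyy, at 12.6 down to 5.53 CPM per kb, where each neighbouring pair overlapped in its control ranges. Crh, at 1.97 CPM per kb, and Vip, at 1.44 CPM per kb, were the lowest and overlapped with each other, and Crh lay below Pyy in all control libraries. In mutants the means of 2 neighbouring pairs stood in the other order: Npy (10.4 ± 3.76 CPM per kb) lay above Tac1 (7.86 ± 5.13 CPM per kb), and Crh (1.31 ± 0.896 CPM per kb) above Pyy (1.17 ± 0.971 CPM per kb; SD, n = 4 each), within their spread.

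The control regions of 3 members are shown, that of Sst because it holds the full cyclic AMP response element and those of Vip and Pyy because these genes differed most. They are the 250 bases before the annotated start, 5′ to 3′ on the strand of the gene, from RefSeq on GRCm38.p6, while the deposited counts were made on mm9. Sst lies at chr16:23890845-23891094, minus strand, Vip at chr10:5638968-5639217, plus strand, and the first of the 2 Pyy windows at chr11:102107833-102108082, minus strand. Capitals mark the cyclic AMP response element TGACGTCA, its core TGACG, both searched on both strands, and the TATA box TATAAA, searched on the strand of the gene.
Sst: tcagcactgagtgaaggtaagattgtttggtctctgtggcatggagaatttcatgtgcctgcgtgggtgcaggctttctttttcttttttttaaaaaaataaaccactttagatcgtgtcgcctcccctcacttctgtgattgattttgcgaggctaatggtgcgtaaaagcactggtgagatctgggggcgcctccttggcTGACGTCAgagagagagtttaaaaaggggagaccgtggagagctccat
Vip: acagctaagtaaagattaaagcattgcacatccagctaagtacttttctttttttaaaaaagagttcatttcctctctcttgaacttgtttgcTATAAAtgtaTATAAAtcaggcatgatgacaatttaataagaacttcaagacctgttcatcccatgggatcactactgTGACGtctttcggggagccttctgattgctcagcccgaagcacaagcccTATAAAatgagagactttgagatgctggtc
Pyy: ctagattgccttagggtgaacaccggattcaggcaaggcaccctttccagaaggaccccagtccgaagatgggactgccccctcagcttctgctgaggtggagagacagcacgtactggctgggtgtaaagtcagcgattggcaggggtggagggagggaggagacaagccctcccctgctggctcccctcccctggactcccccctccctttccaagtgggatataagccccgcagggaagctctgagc
The full element TGACGTCA started at position -48 from the Sst start and occurred in 1.55% of all 32851 windows of this length. The core, which lies within the full element, was found in windows of 6 of the 8 members that had a window. Counted by window, it was in 7 of the 10 member windows and in 17.8% of all windows. In Vip the core started at -79. TATAAA occurred in 7.59% of all windows and was found in Vip and in Adcyap1.

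Vip and Pyy, the pair with the lowest levels in mutants, were low in each of the 4 mutant libraries. Vip encodes vasoactive intestinal peptide, a relative of PACAP that shares its VPAC receptors. Its level was 1.09, 0.473, 0.707 and 0 CPM in mutants 1 to 4, against 3.14, 2.61, 1.55 and 1.502 CPM in controls 1 to 4. These levels rest on 25, 11, 16 and 0 counts in the mutants and 81, 67, 34 and 32 counts in the controls. The groups did not overlap, and the log2 fold change was -1.99 (SE 0.59; edgeR adjusted p = 0.381; exact two-sided permutation p = 0.0286, the smallest that 4 against 4 libraries allow).

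Pyy encodes peptide YY, a relative of neuropeptide Y known mainly as a gut hormone and made in the brain by neurons of the medulla. Its level was 1.27, 0.473, 1.19 and 0 CPM in mutants 1 to 4 (29, 11, 27 and 0 counts), against 5.23, 2.07, 3.38 and 3.15 CPM in controls 1 to 4 (135, 53, 74 and 67 counts). Every mutant lay below every control, with a log2 fold change of -2.26 (SE 0.61; edgeR adjusted p = 0.381; exact two-sided permutation p = 0.0286). With 0 counts in mutant 4, where 3 counts would be 0.112 CPM, Vip there was at least 19.7-fold lower than the control mean and Pyy at least 31.0-fold lower. Counting error alone sets these bounds. Without mutant 4 the log2 fold change was -1.55 for Vip and -1.82 for Pyy. In mutant 1 Vip stood at 49.7% and Pyy at 36.7% of the control mean. In that library the summed Hox level (173 CPM) lay within the control range of 120 to 211 CPM, and the summed level of brainstem motor and monoamine neuron genes (115 CPM) lay below the control range of 129 to 177 CPM.

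Sst, the precursor of somatostatin, an inhibitory peptide of GABAergic neurons, was lower on average in mutants with some overlap. Its level was 59.4, 74.7, 60.6 and 19.1 CPM in mutants 1 to 4, against 82.2, 65.5, 127 and 94.7 CPM in controls 1 to 4. Mutant 2 lay above control 2, and the other mutants lay below all controls. Means were 53.5 ± 23.9 CPM in mutants and 92.4 ± 26.0 CPM in controls (SD, n = 4 each), a log2 fold change of -0.79 (SE 0.34; edgeR adjusted p = 0.392; exact two-sided permutation p = 0.0571). It was -0.51 without mutant 4.

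Penk, the precursor of the opioid enkephalins, varied less among controls than Sst did. It stood at 68.3, 69.3, 50.8 and 31.1 CPM in mutants 1 to 4, against 82.5, 71.2, 87.8 and 78.6 CPM in controls 1 to 4. The groups did not overlap, but mutants 1 and 2 were close to control 2. The log2 fold change was -0.55 (SE 0.21; edgeR adjusted p = 0.386; exact two-sided permutation p = 0.0286), and it was -0.35 without mutant 4.

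Adcyap1, Tac1, Nts and Crh were graded across the mutant libraries, with mutants 1 and 2 near or within the control range and mutant 4 far below it. Adcyap1, the PACAP precursor, was at 20.8, 17.7, 13.9 and 6.43 CPM in mutants 1 to 4, against 21.9, 19.8, 22.4 and 19.2 CPM in controls 1 to 4. Tac1, the precursor of substance P and neurokinin A, was at 16.1, 12.0, 9.46 and 1.15 CPM in mutants 1 to 4, against 17.5, 16.3, 14.4 and 13.6 CPM in controls 1 to 4. In both genes mutant 1 overlapped the controls, and mutants 2, 3 and 4 lay below all of them. Nts, the neurotensin precursor, was at 7.57, 7.35, 4.73 and 2.23 CPM in mutants 1 to 4, against 11.2, 9.60, 6.85 and 7.23 CPM in controls 1 to 4. Crh was at 2.80, 2.53, 1.37 and 0.223 CPM in mutants 1 to 4, against 2.94, 2.19, 2.56 and 2.72 CPM in controls 1 to 4. For these 2 genes mutants 3 and 4 lay below all controls and mutants 1 and 2 did not. Log2 fold changes were -0.51 (SE 0.28) for Adcyap1, -0.68 (SE 0.51) for Tac1, -0.68 (SE 0.33) for Nts and -0.60 (SE 0.49) for Crh, with edgeR adjusted p of 0.437, 0.547, 0.403 and 0.584 in the same order. Without mutant 4 they were -0.26, -0.31, -0.42 and -0.22. Without mutant 1 that of Tac1 was -1.06 and that of Crh -0.95.

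Npy and Cck did not separate by genotype. Npy, the precursor of neuropeptide Y, was at 8.88, 5.11, 5.57 and 3.90 CPM in mutants 1 to 4, against 4.53, 4.22, 7.86 and 9.06 CPM in controls 1 to 4. Cck, the cholecystokinin precursor, was at 8.53, 7.05, 11.3 and 6.21 CPM in mutants 1 to 4, against 9.06, 5.35, 13.1 and 14.3 CPM in controls 1 to 4. Both were higher in controls 3 and 4, which carry the letter R, than in controls 1 and 2, which carry P. The same held for Sst, while Vip, Tac1 and Nts were higher in controls 1 and 2 than in controls 3 and 4. With 2 controls per letter such a split is common by chance, and its share over all genes tested is not given here. For Npy the log2 fold change was -0.13 (SE 0.30, edgeR adjusted p = 0.870) and for Cck -0.33 (SE 0.29, edgeR adjusted p = 0.608). That of Npy had the opposite sign without mutant 4 (0.026) and without control 4 (0.086), and with any of the other libraries left out it was -0.41 to -0.013. That of Cck was -0.52 without mutant 3, -0.22 without mutant 4, -0.57 without control 2, -0.21 without control 3 and -0.15 without control 4.

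**Figure D2:**
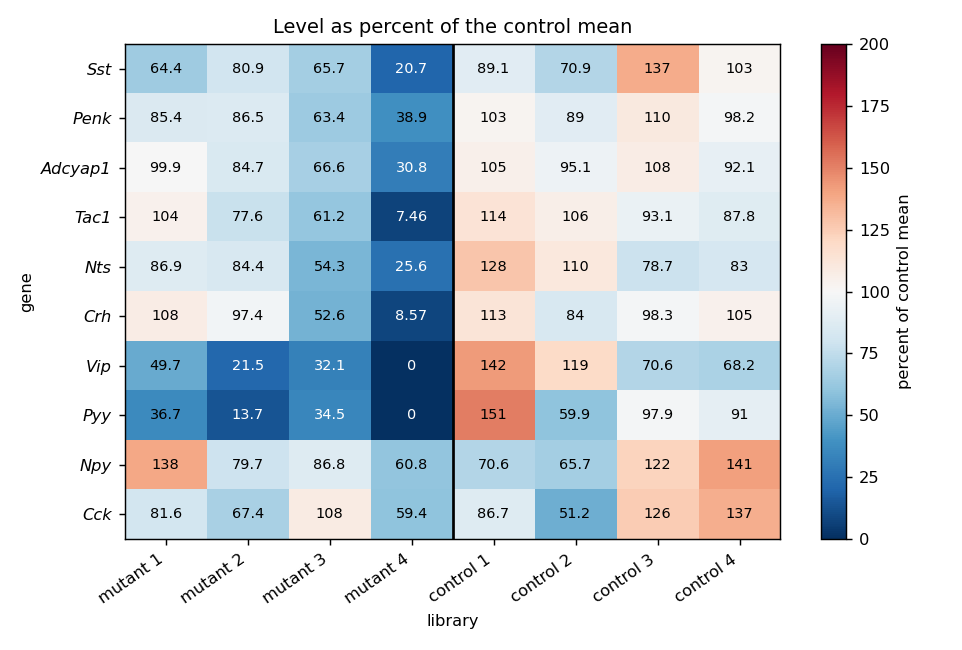
Level of each gene (rows) in each library (columns, mutants left of the line) as a percent of that gene's control mean, printed in the cell and shown by colour from 0 to 200. Mutant 4 reads 0 for Vip and Pyy, 7.46 for Tac1 and 8.57 for Crh, while Vip and Pyy read under 50 in all 4 mutants.

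The share of the control level that remained differed between the 4 mutant libraries. For mutants 1 to 4, the medians over the 10 genes were 86.1%, 80.3%, 62.3% and 23.2% of the control mean, against 86.5 to 109% in the 4 controls. Mutant 4 was the lowest of the 8 libraries for 9 of the 10 genes, which held for 23.2% of all genes tested; the exception was Cck, where control 2 was lower. Mutant 1 lay below every control for 4 of the 10 (Sst, Vip, Pyy and Penk), and for 24.3% of all genes tested. With mutant 4 left out, the 10 genes had a median log2 fold change of -0.33.

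Within title letters, all 10 genes had a larger decrease, or a decrease in place of a higher mean, among R libraries than among P libraries. The share of all genes tested that did so is not given here. Median log2 fold changes were also lower within R for their receptors (-0.12 within P, -0.83 within R) and for peptide processing genes (-0.079 and -0.64). Those of other neuropeptide genes were not (-0.21 and -0.097). The log2 fold change of Sst was -0.14 within P and -1.50 within R, that of Penk -0.17 and -1.05, and that of Crh 0.051 and -1.80. Vip (-1.88 within P, -2.22 within R) and Pyy (-2.07 within P, -2.55 within R) were low in both. Npy was higher in both P mutants than in both P controls (log2 fold change 0.67) and lower in both R mutants than in both R controls (-0.87). A test of the difference between letters was past the threshold for 0 of the 10; the smallest adjusted p was that of Npy (edgeR interaction, adjusted p = 0.0677), followed by Penk (0.119). The R mutants are mutants 3 and 4, so the letter and the library that stands apart are not separate, and their part in the difference was not tested.

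**Figure D3:**
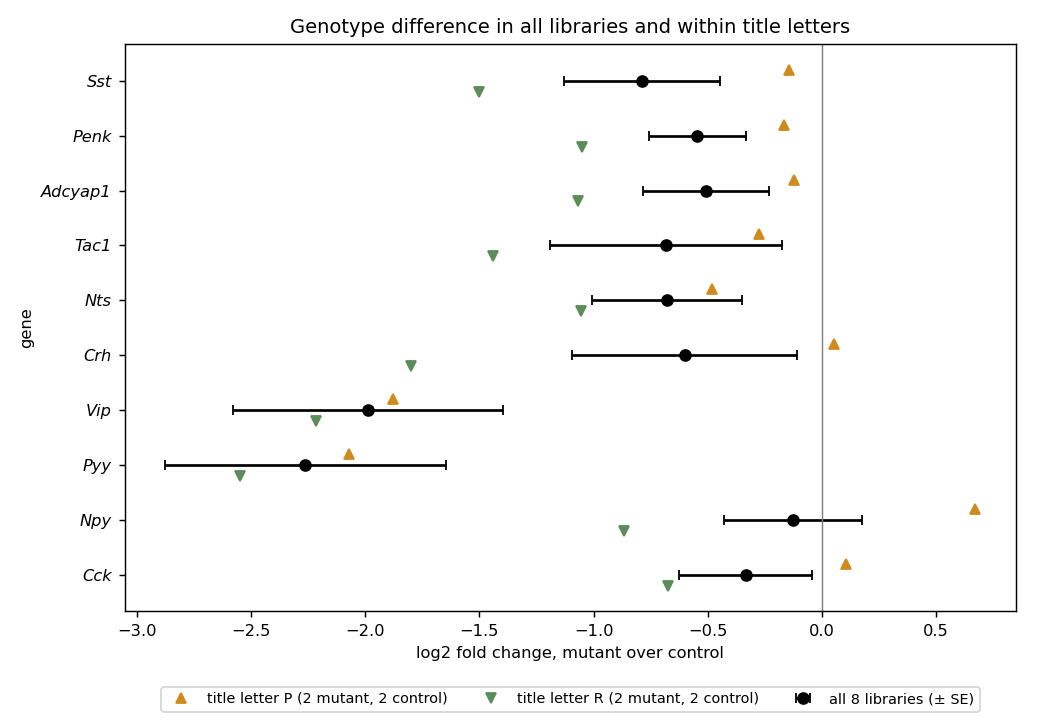
Log2 fold change, mutant over control (x axis), of each gene (y axis) over all 8 libraries with its SE (circles) and within title letters P (upward triangles) and R (downward triangles), with 2 mutants and 2 controls each. Vip and Pyy lie near -2 in both letters, and Npy lies on opposite sides of 0.

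The lower counts were spread over the exons. The 10 genes comprise 41 exon bins on chromosomes 3, 4, 6, 9, 10, 11, 16 and 17, and 39 of them had a lower summed share of the library in mutants. The exceptions were a bin of Npy and a bin of Cck that held 1 count in all. Bins of a gene are not separate observations, and a lower gene total makes lower bins likely. Bin 1 of Sst held 55.4 ± 2.84% of its bin counts in mutants and 55.0 ± 1.75% in controls (SD, n = 4 each). Bin 3 of Pyy held 35.8 ± 2.31% in the 3 mutants with a count and 38.6 ± 2.28% in the 4 controls (SD). Of the 41 bins, 36 were tested. Over 13351 genes, bin use was called for 0 of the 10 and for 0.00749% of all genes tested. The test was edgeR diffSpliceDGE with Simes' method (adjusted p = 0.999998 for each of the 10). It gave 30 genes at an unadjusted p under 0.05, fewer than chance would give at that p. A test this strict could hardly call a member, so its 0 does not show equal bin use.

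Receptors of these peptides were measured beside them. Of 25 receptor genes, 23 passed the filter, 17 with lower and 6 with higher means in mutants, and 0 passed the adjusted threshold (median log2 fold change -0.38). At an unadjusted p under 0.05, 5 were lower and 2 higher, against 5.7% and 6.94% of all genes tested. Sstr2, a somatostatin receptor, was at 28.7, 32.2, 35.6 and 51.1 CPM in mutants 1 to 4, against 23.4, 21.0, 29.6 and 30.8 CPM in controls 1 to 4 (log2 fold change 0.49, SE 0.19; edgeR adjusted p = 0.381). Sstr1, another receptor of the same peptide, had a log2 fold change of -0.35 (SE 0.14; edgeR adjusted p = 0.387). The groups overlapped for both receptors. Ntsr1, a neurotensin receptor, averaged 4.96 ± 2.45 CPM in mutants and 9.76 ± 3.59 CPM in controls (SD, n = 4 each; log2 fold change -0.98; edgeR adjusted p = 0.381). The other genes at that p, chosen after their values were seen, were Vipr1 (0.52), Npy5r (-0.83), Sstr5 (-0.72) and Oprd1 (-0.54), given as log2 fold changes. Adcyap1r1, the PACAP receptor, stood at 317 ± 49.3 CPM in mutants and 357 ± 9.93 CPM in controls (SD, n = 4 each).

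Among 15 genes of peptide processing and dense-core vesicles, all tested, 11 had lower and 4 higher means (median log2 fold change -0.31), and 0 passed the adjusted threshold. Vgf and Chga, which encode granin-family cargo of dense-core vesicles, had log2 fold changes of -0.52 (SE 0.19) and -0.52 (SE 0.19), and Cadps2, a vesicle priming factor abundant in granule cells, had 0.53 (SE 0.18), each with an edgeR adjusted p of 0.381. Among 39 other neuropeptide genes, 20 were under the filter; of the 19 tested, 11 had lower and 8 higher means, with a median log2 fold change of -0.08, and 0 passed by edgeR. Calca, the precursor of calcitonin gene-related peptide, was at 3.98, 2.62, 2.21 and 1.26 CPM in mutants 1 to 4, against 7.90, 7.42, 5.26 and 3.85 CPM in controls 1 to 4 (log2 fold change -1.29, SE 0.33; edgeR adjusted p = 0.381), and DESeq2 called it lower (adjusted p = 0.0344). DESeq2 called 0.0719% of genes lower and 0.261% higher. Gal, the galanin precursor, averaged 1.75 ± 0.604 CPM in mutants and 3.83 ± 1.20 CPM in controls, and Pnoc, the nociceptin precursor, 19.3 ± 3.31 CPM in mutants and 27.3 ± 3.67 CPM in controls (SD, n = 4 each); in both, every mutant lay below every control (edgeR adjusted p = 0.381 for each).

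**Figure D4:**
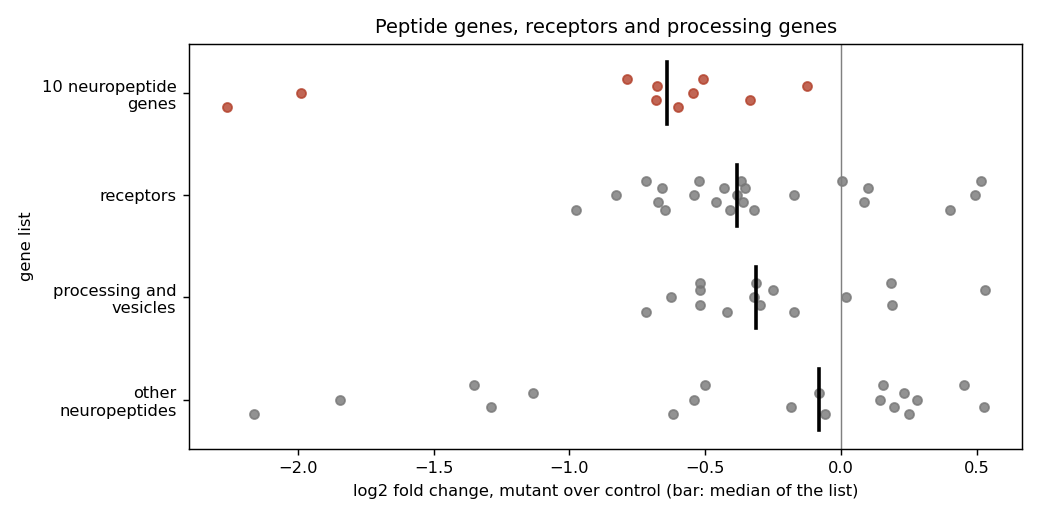
Log2 fold change, mutant over control (x axis), of every tested gene (points) in 4 gene lists (rows), with the median of each list as a black bar. The 10 neuropeptide genes all lie below 0 with a median of -0.64, and the other lists hold genes on both sides, with medians of -0.38, -0.31 and -0.08.

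Markers of neighbouring tissue and of other cell types moved between the same libraries. All 13 tested Hox genes had lower means in mutants (median log2 fold change -0.92), and each had a count in every library. That median was -0.51 without mutant 4, -0.073 within P and -1.69 within R. Among 13 genes of brainstem motor and monoamine neurons, 10 had lower means and the summed level was 16.3 to 148 CPM in mutants and 129 to 177 CPM in controls. The 3 with higher means, Slc6a2, Dbh and Th, had log2 fold changes of 1.14, 0.66 and 0.0082. In mutant 2, which had the highest mutant sum, Slc6a2 was at 34.7 CPM and Dbh at 19.0 CPM. Over all 13 genes the median log2 fold change was -0.79, and -0.44 without mutant 4. Prph, an intermediate filament of motor and other neurons with peripheral axons, averaged 12.46 ± 9.10 CPM in mutants and 54.7 ± 7.64 CPM in controls, and Isl1, a motor neuron factor, 2.06 ± 0.962 CPM in mutants and 5.44 ± 1.47 CPM in controls (SD, n = 4 each). As with Vip and Pyy, every mutant, mutant 1 included, lay below every control for Prph and Isl1 (edgeR adjusted p = 0.381 for each). Such a separation held for 5 of the 13 genes of that list and for 2.96% of all genes tested. DESeq2 called Isl1 lower (adjusted p = 0.0127). The oligodendrocyte list summed to 647 to 1254 CPM in mutants and 1255 to 1886 CPM in controls. The 12 GABA and glycine neuron genes summed to 1184 to 1354 CPM in mutants and 1252 to 1432 CPM in controls. Of these genes, 8 had lower and 4 higher means, with a median log2 fold change of -0.19. Reln, higher on average in mutants, weighed heavily in the sums. It made up 444 of the 1184 CPM in mutant 4 and 304 of the 1252 CPM in control 2. The 3 of smallest p in that list were Slc32a1, the vesicular transporter of both transmitters (log2 fold change -0.57), Reln, the extracellular protein reelin (0.29), and Slc6a5, the glycine transporter of glycinergic neurons (-0.92), with edgeR adjusted p of 0.381, 0.391 and 0.398 in that order. Granule cell precursor markers were present throughout and summed to 1485 to 2826 CPM in mutants and 1424 to 1705 CPM in controls. All 12 had higher means in mutants (median log2 fold change 0.42). The 12 Purkinje cell markers all had counts in every library. They summed to 1193 to 1654 CPM in mutants and 1002 to 1452 CPM in controls, with 11 higher and 1 lower means (median log2 fold change 0.29). Without mutant 4 these medians were 0.22 for granule cell precursors and 0.11 for Purkinje cells. Choroid plexus markers summed to 3449 to 6036 CPM in mutants and 1359 to 3180 CPM in controls, and DESeq2 called 4 of the 10 higher, Cldn2, Clic6, Kl and Otx2 (adjusted p of 0.00115 to 0.0181). Meningeal markers summed to 1650 to 2064 CPM in mutants and 1397 to 2525 CPM in controls. Midbrain and tectum markers summed to 67.5 to 98.4 CPM in mutants and 81.0 to 91.0 CPM in controls. The part of these lists in the differences of the neuropeptide genes was not tested.

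**Figure D5:**
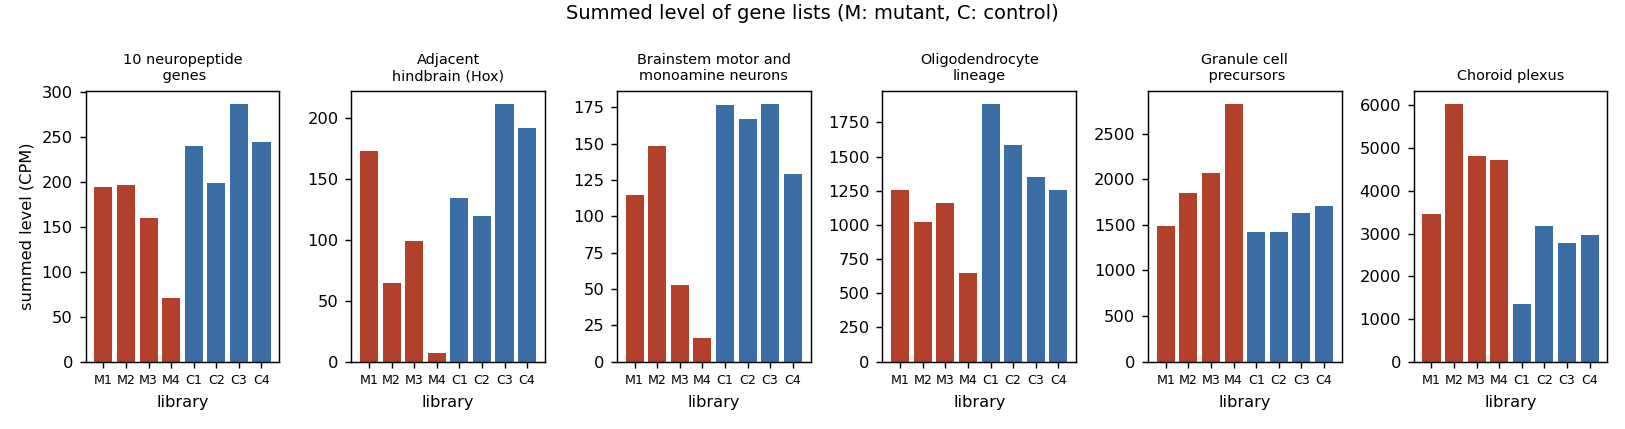
Summed level in CPM (y axes, from 0) of 6 gene lists in each library, mutants in red on the left and controls in blue on the right. Mutant 4 has the lowest sum of neuropeptide, Hox, brainstem and oligodendrocyte genes and the highest of granule cell precursor genes.

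The genes whose levels followed each neuropeptide gene most closely across the 8 libraries were found by Pearson correlation of log2 CPM among 14704 other genes, as a description; the best of so many genes over 8 points is high by construction. Sst was most like Caly (r = 0.996), which encodes a vesicle protein of neurons, Cend1 (0.994) and Polr2m (0.992). Vip was most like Dleu7 (0.996) and the myelin genes Mbp (0.993) and Mag (0.993). Pyy was most like Aldoc (0.994), C1ql2 (0.989) and Tango2 (0.983), and Crh was most like the hindbrain gene Hoxa2 (0.993), Rasgrf2 (0.992) and Meis2 (0.991). For Penk they were Fads1, Snap91 and Epb4.1l3 (0.995 to 0.997), for Tac1 Pgr15l, Smim1 and 6720416L17Rik (0.994 to 0.997), for Adcyap1 Gng4, Rasgrf2 and Zcchc12 (0.996 to 0.997), and for Nts Dusp22, Prss35 and AF357359 (0.989 to 0.991). Npy, most like Pknox2, Pcdhb13 and March4 (0.960 to 0.975), and Cck, most like Ephb3, Cnih2 and Rab15 (0.945 to 0.953), had the lowest values. Without mutant 4, 5 of these 30 entries, in which Rasgrf2 stands for both Adcyap1 and Crh, were still among the closest 3. All 45 pairs of neuropeptide genes had r of 0.123 to 0.983 over 8 libraries and -0.492 to 0.913 without mutant 4. With Npy and Cck set aside, after their values were seen, the other 28 pairs had r of 0.789 to 0.983 over 8 libraries and 0.0922 to 0.913 without mutant 4.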

How the data were processed

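Each library came with whole-number counts per gene and per exon bin, deposited by the authors without normalization. The submitters' processing notes list TopHat, HTSeq and DESeq2 with no version, and the mm9 build. Gene annotation and strand setting are not given in the sources used here, so reads of a gene and its antisense partner may be mixed. Summary lines that name no gene (24.8 to 34.3% of entries) were left out. Replicates were separate pups per the labels, and replicate pairs differed by more than counting noise (chi-square per degree of freedom 7.42 to 81.0).

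The gene test was that of edgeR 4.0.16, run in R 4.3.3 (filterByExpr, TMM, robust quasi-likelihood fit with genotype as the only term, two-sided, Benjamini-Hochberg over 15789 genes, threshold 0.05). CPM were computed from the counts on TMM-scaled sizes. SEs were derived from each fold change and F value. Correlations used log2 CPM with a prior count of 2. Exon bins were tested with diffSpliceDGE. DESeq2 1.42.0 (51 genes called), other scaling and filters, the title letter as a block and each library left out were alternatives; the interaction of genotype and title letter was added after seeing the data. Scripts were tested on simulated data.

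The members and lists were chosen with earlier results of these data known. The rule named all 10 members, Sufu, the 3 genes of smallest p in each list and the 3 genes most like each member; not all are printed. Promoters came from RefSeq tables with no window for 2 members, Penk and Crh.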

Additional observations from a re-analysis of the deposited data

Results flagged for a closer look

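Npy was singled out because both P mutants lay above both P controls while both R mutants lay below both R controls. Its level averaged 6.996 CPM in P mutants and 4.37 CPM in P controls, and 4.74 CPM in R mutants and 8.46 CPM in R controls. The log2 fold change within R less that within P was -1.52, with an adjusted p of 0.0677 in edgeR's interaction test over all genes, so the difference did not pass the threshold. No other member met this pattern. By Dixon's test on CPM, which chance passes in some groups, no library stood apart within its group for any of the 10 genes. With 4 libraries per group that test can miss a library that differs, and mutant 4 was the lowest mutant for all 10.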

How the results depend on the processing

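No setting called any of the 10 genes: the count stayed at 0 with RLE scaling, DESeq2, no filter, no robust shrinkage, the title letter as a block, either letter alone and each library left out, for gene levels, and with a minimum of 10 counts per bin and each library left out, for exon bins. The lowest adjusted p under any of the 15 alternatives was 0.0911, for Penk. The median log2 fold change of the 10 genes (-0.64) was -0.15 within P, -1.25 within R and -0.87 to -0.33 with a library left out, lowest without mutant 1 and nearest 0 without mutant 4. Directions turned for Npy (0.026 without mutant 4, 0.086 without control 4, 0.67 within P; -0.41 to 0.086 with a library left out), for Cck (0.11 within P) and for Crh (0.051 within P); the cause was not tested. Sst, Vip, Pyy, Penk, Tac1, Adcyap1 and Nts kept their direction in all 15. The median of the receptors was -0.24 and that of the processing genes -0.16 without mutant 4. By Spearman correlation, 3 of the 30 entries for genes most like the members were the same. No paired analysis was possible because the labels give no replicate numbers that tie a mutant to a control; with the title letter as a block the adjusted p of the members ranged from 0.216 to 0.898. Depth limits Vip and Pyy, with at most 29 counts in a mutant library.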

Other observations

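Some low peptide genes, chosen after their values were seen, had most of their counts in a single library or in the P mutants. Pomc, the precursor of melanocortins and beta-endorphin, was at 0.818 to 1.64 CPM in the 4 mutants and at 14.6, 1.52, 1.83 and 1.36 CPM in controls 1 to 4, so control 1 was far above the other 7 libraries (log2 fold change -2.16; edgeR adjusted p = 0.381). Rln3, the relaxin-3 precursor, whose main brain source in rodents is the nucleus incertus of the pons, was under the filter on low counts, with 27, 26, 2 and 5 counts in mutants 1 to 4, against 6, 2, 7 and 3 counts in controls 1 to 4.

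Calcb, the second gene for calcitonin gene-related peptide, shared the pattern of Vip and Pyy in having 0 counts in mutant 4. It was at 1.49, 0.301, 0.265 and 0 CPM in mutants 1 to 4, against 2.28, 1.80, 1.78 and 1.36 CPM in controls 1 to 4 (edgeR adjusted p = 0.381), and mutant 1 overlapped the controls. Trh, the precursor of thyrotropin-releasing hormone, was at 0.875, 0.773, 1.64 and 0.186 CPM in mutants 1 to 4, against 2.28, 1.68, 3.15 and 1.64 CPM in controls 1 to 4 (edgeR adjusted p = 0.381). Both were chosen after their values were seen.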
